A study of Mus musculus with 4 samples.

Results

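The splicing genes described here are the 64 genes of the table whose mouse symbols begin with Srsf, Sf3a, Sf3b, Hnrnp, Snrp, Snrnp or Prpf, out of 10327 genes listed in all. By prefix they are 9 Srsf, 3 Sf3a, 6 Sf3b, 18 Hnrnp, 8 Snrp, 7 Snrnp and 13 Prpf genes. Membership was set by symbol prefix, and all 64 are annotated as protein coding. The set was chosen with earlier results of these data known, so its counts are described and not tested. The values are ribosome profiling levels: a lysate is digested with RNase, the stretches of mRNA shielded by ribosomes (footprints) are sequenced, and a gene's value is its CPM, the reads of that gene per 1000000 reads of the listed genes. The libraries came from epidermal keratinocytes of newborn mice at postnatal day 0, without treatment. The conditional knockout group (cKO) had 2 libraries of genotype K14Cre,Mettl14F/F, that is, a Cre transgene under the keratin 14 promoter, active in basal keratinocytes, and both copies of Mettl14 floxed. The control group (Ctrl) had 2 libraries of genotype K14Cre,Mettl14F/+, so that it carried the same Cre and had 1 floxed copy. The METTL14 protein pairs with METTL3 in the enzyme that places N6-methyladenosine (m6A) on mRNA. Whether the 2 libraries of each group stem from different animals is not stated, so p-values here measure only the spread between these libraries, which may be technical.

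Introns are removed from pre-mRNA by the spliceosome, which is assembled anew on each intron from small nuclear ribonucleoproteins (snRNPs). Each is a small nuclear RNA with proteins of its own, and most of them also hold a ring of Sm proteins. U1 marks the start of an intron, U2 with the SF3A and SF3B complexes binds the branch point, and the joined U4, U6 and U5 particles then bring the catalytic parts. SR proteins (the Srsf genes) bind exons and recruit this machinery, while hnRNP proteins coat pre-mRNA and often favour exon skipping. Many SR and hnRNP genes control their own level through exons whose inclusion sends the transcript to nonsense-mediated decay. Links with m6A are known for a few members: the protein of Hnrnpa2b1 has been described as a nuclear reader of m6A, that of Hnrnpc binds sites made accessible by m6A, and that of Srsf3 is a partner of the nuclear m6A reader Ythdc1.

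The libraries held 542074 reads (cKO 1), 751948 reads (cKO 2), 933574 reads (Ctrl 1) and 624167 reads (Ctrl 2) over the listed genes. Mettl14 itself had 5 and 4 reads in the cKO libraries, against 26 and 17 reads in the Ctrl libraries, which is the direction the labels give, with a log2 change of -1.83 ± 0.55 (standard error) and a Benjamini-Hochberg adjusted p of 0.122 in limma. Markers of basal keratinocytes (7 of 7 listed) summed to 10423 and 11892 CPM in cKO and 23297 and 20999 CPM in Ctrl. Markers of suprabasal keratinocytes (8 of 8 listed) summed to 199937 and 189138 CPM in cKO and 136803 and 125803 CPM in Ctrl. Both defining keratinocyte lists were thus present at high levels in every library. Fibroblast markers (9 of 9 listed) summed to 1961 and 1500 CPM in cKO and 4390 and 2922 CPM in Ctrl, and red blood cell markers (6 of 6 listed) to 528 and 99.7 CPM in cKO and 121 and 81.7 CPM in Ctrl. Melanocyte markers (6 of 6 listed) summed to 832 and 908 CPM in cKO and 699 and 1359 CPM in Ctrl, immune markers (4 of 6 listed) to 426 and 186 CPM in cKO and 272 and 498 CPM in Ctrl, and none of the 5 endothelial or 5 muscle markers has a row. The sums of the basal and fibroblast lists were thus lower and that of the suprabasal list higher in both cKO libraries than in both Ctrl libraries, and the part of these lists in the results below was not tested. The fibroblast markers had a median log2 change of -1.12, and of -0.33 without Ctrl 1. From bulk footprints alone, fewer cells of a type, less mRNA per cell and fewer ribosomes per mRNA cannot be told apart.

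Footprints of the splicing genes were lower in the cKO libraries across all 7 prefixes. Together the 64 genes took 9237 CPM in cKO 1 and 9135 CPM in cKO 2, against 13249 CPM in Ctrl 1 and 12846 CPM in Ctrl 2. The sum averaged 9186 ± 72.0 CPM in cKO and 13048 ± 285 CPM in Ctrl (SD, n = 2 each), a ratio of 0.704, and the libraries of the groups did not overlap. Changes are given as the difference of mean log2(CPM + 1), cKO minus Ctrl, a scale that understates the change of genes with few reads. This log2 change was below 0 for 62 of the 64 genes, where 67.9% of all genes lay below 0. Because the median over all genes was itself -0.24, a value relative to that median is also given. Of the 64 splicing genes, 56 lay below that median, against 50% of all genes by construction. With any 1 library left out, 49 to 52 of the 64 splicing genes lay below the median of all genes. The median of the splicing genes, -0.50, stood at -0.25 relative to all genes. The cKO libraries were both under the lower Ctrl library for 46 of the 64 genes, or 71.9%, where 34.1% of all genes did so, and for no splicing gene did both cKO libraries lie above both Ctrl libraries, where 11.1% of all genes did. Among all genes at or above the median expression of 28.1 CPM, 38.8% had both cKO libraries under both Ctrl libraries, 69.5% had a log2 change below 0, and the median log2 change was -0.23.

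Single genes were then tested. Called genes are those with a Benjamini-Hochberg adjusted p under 0.05 over all 10327 genes in limma with a mean-variance trend. Of the 64 splicing genes, 1 was called lower, Hnrnph1, where 0.3% of all genes were called lower, and 0 were called higher, where 0.368% of all genes were. At an unadjusted p under 0.05, 23 of the 64 (35.9%) were lower in limma, against 10.8% of all genes, and 0 were higher, against 3.5% of all genes. Among all genes at or above the median expression, 15.6% were lower at that threshold. The median mean CPM was 81.8 for the splicing genes and 28.1 for all genes. None of the 64 was called higher after median centring (1.02% of all genes), with edgeR and TMM (1.58%), with edgeR and library totals (0.6%) or with DESeq2 (2.66% of the 3119 genes with an adjusted p). Called lower were 0 after median centring (0.0775% of all genes), 0 with edgeR and TMM (0.126%), 0 with DESeq2 (0.128%) and 2 with edgeR and library totals (0.542%), namely Hnrnph1 and Hnrnpll. The group is thus described by its counts and medians, which carry no test, beside 1 single-gene call.

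**Figure D1:**
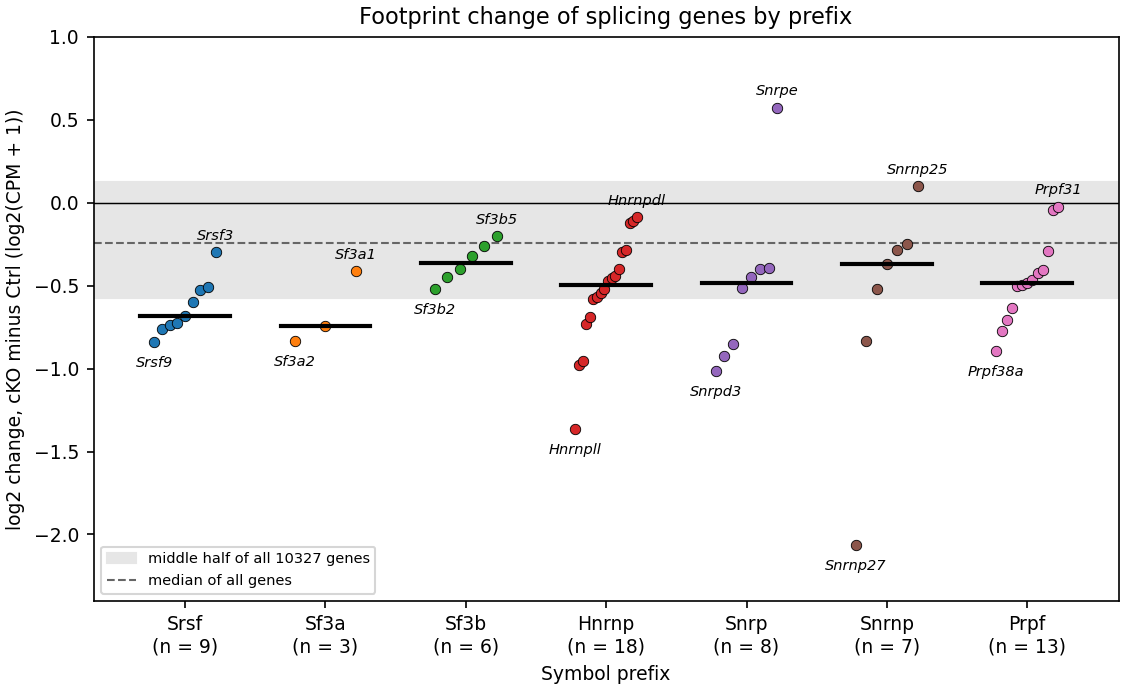
Log2 change (cKO minus Ctrl, on log2(CPM + 1)) of each of the 64 splicing genes, 1 point per gene, by symbol prefix, with the prefix median as a bar and the lowest and highest gene named. The dashed line is the median of all genes (-0.24) and the grey band their interquartile range. All 7 prefix medians lie below the dashed line, and only Snrpe and Snrnp25 lie above 0.

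**Figure D2:**
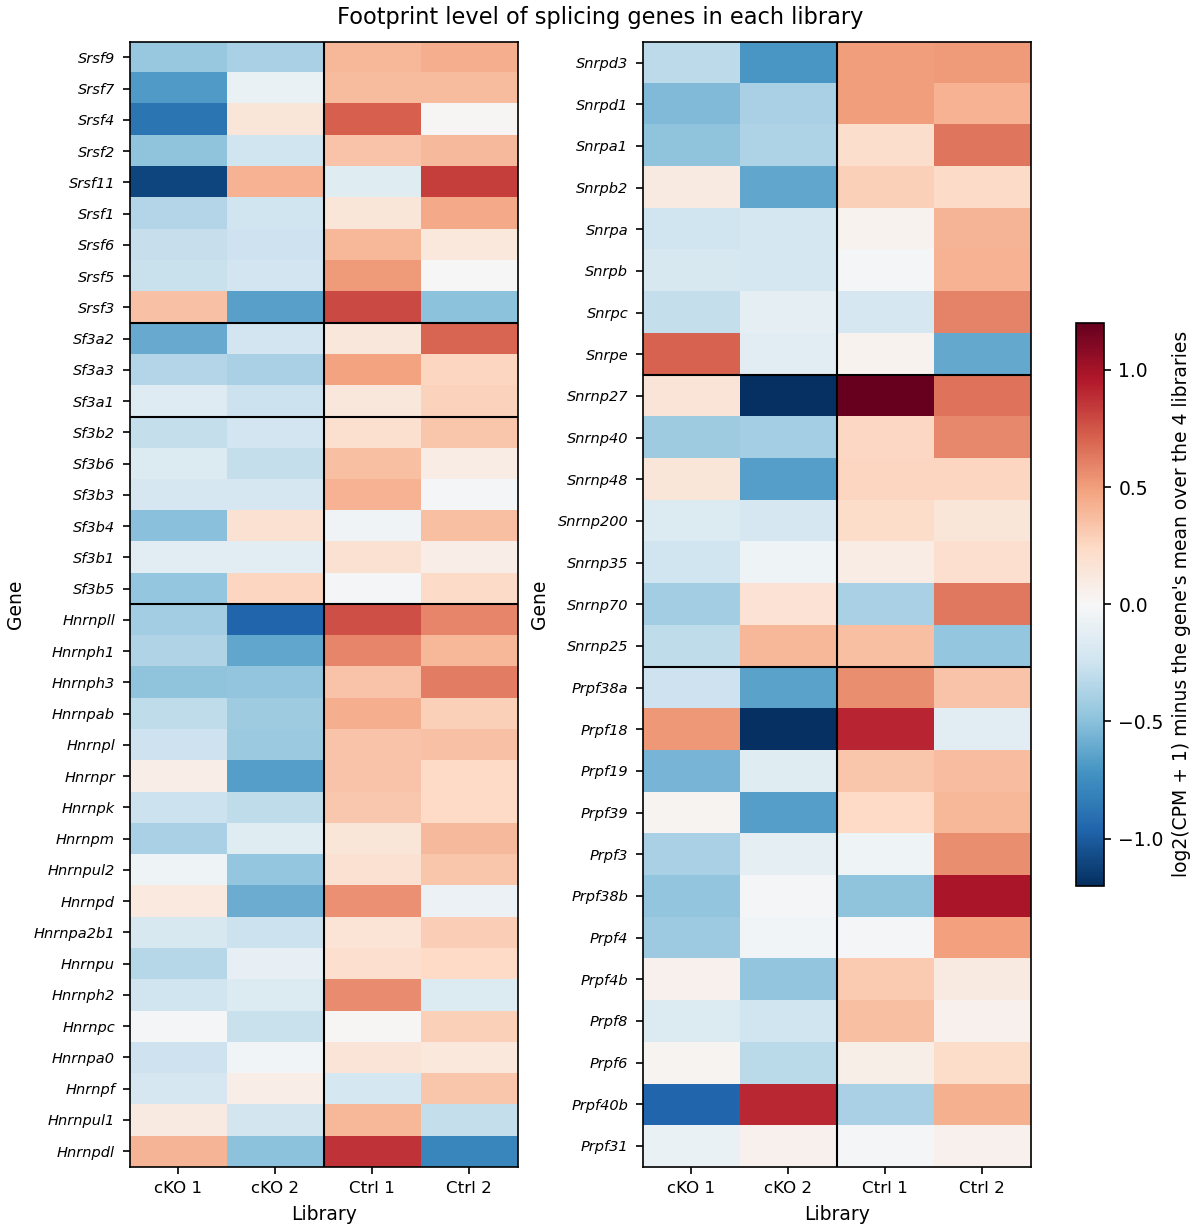
Level of splicing genes in each library, as log2(CPM + 1) minus the gene's mean over the 4 libraries, with lines between prefixes in the order Srsf, Sf3a, Sf3b and Hnrnp on the left and Snrp, Snrnp and Prpf on the right. The darkest colours also stand for differences beyond the end of the scale. Blue prevails in the cKO columns and red in the Ctrl columns, and rows such as Srsf11, Hnrnpdl and Prpf18 differ more between libraries of a group than between groups.

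The 9 SR genes (Srsf) are described first. All 9 had a log2 change below the median of all genes, from -0.84 (Srsf9) to -0.30 (Srsf3), with a median of -0.69, or -0.44 relative to all genes. Their summed level was 747 and 924 CPM in cKO and 1301 and 1307 CPM in Ctrl, a ratio of 0.641. None was called, where 0.3% of all genes were called lower and 0.368% higher. At an unadjusted p under 0.05 in limma, 4 of 9 were lower. This compares with 10.8% of all genes and 15.6% of those at or above the median expression. The median relative to all genes was -0.27 without cKO 1 and -0.63 without cKO 2, so the size of the difference depended on which cKO library was used, though not its direction.

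Srsf2 (also known as SC35), a core SR protein of nuclear speckles, had 210 CPM in cKO 1 and 249 CPM in cKO 2, against 373 CPM in Ctrl 1 and 386 CPM in Ctrl 2. The groups did not overlap, and the log2 change of -0.73 ± 0.21 (standard error) did not pass over all genes (limma adjusted p = 0.118). Its exons overlap those of Mettl23 and Mfsd11 over 25.3% of their bases, so its reads may be shared with them. Srsf1, the founding member of the family, which binds exonic enhancers, had 140 and 152 CPM in cKO and 198 and 247 CPM in Ctrl, a log2 change of -0.60 ± 0.23 (limma adjusted p = 0.239). Srsf9, a relative of Srsf1 with a short RS domain, was low in every library, at 20.3 and 21.3 CPM in cKO and 37.5 and 38.5 CPM in Ctrl. The values of Srsf9 hardly differed within a group, yet they rest on 11 and 16 reads in cKO and 35 and 24 reads in Ctrl, and its log2 change of -0.84 ± 0.41 did not pass (limma adjusted p = 0.365). Srsf5, a member whose transcript is known to respond to insulin and growth stimuli, had 109 and 112 CPM in cKO and 187 and 131 CPM in Ctrl, with a log2 change of -0.51 ± 0.25 (limma adjusted p = 0.369) that was -0.25 without Ctrl 1 and -0.76 without Ctrl 2. Srsf7, a close relative of Srsf3, was named after its values were seen: it had 73.8 and 113 CPM in cKO and 155 and 155 CPM in Ctrl, with the groups apart and a log2 change of -0.76 that was -0.46 without cKO 1.

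Srsf3 and Srsf11 show the limits of the table. Srsf3 had 2 and 1 reads in cKO and 5 and 1 reads in Ctrl, and its log2 change was -0.30 ± 0.72 (standard error). Of the 28-base stretches of its coding sequence, 94.9% also occur in annotated transcripts of other genes, and how such reads were counted is not given in the sources used here. Srsf11, named after its values were seen, had 33.2 and 97.1 CPM in cKO and 65.3 and 130 CPM in Ctrl. The second library of each group was the higher one for Srsf11, and the groups overlap.

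The SF3A and SF3B complexes are the protein parts of U2 that hold the branch point. The 3 Sf3a genes had both cKO libraries below both Ctrl libraries in each case, against 34.1% of all genes. Their median was -0.74, or -0.50 relative to all genes and -0.33 relative to them without Ctrl 2. Their summed level was 303 and 306 CPM in cKO and 438 and 487 CPM in Ctrl, a ratio of 0.658. Sf3a2, the subunit with a proline-rich tail, had 57.2 and 74.5 CPM in cKO and 96.4 and 143 CPM in Ctrl, a log2 change of -0.84 ± 0.29 (standard error; limma adjusted p = 0.176) that was -0.56 without Ctrl 2. Sf3a3, the remaining subunit of the complex, had 71.9 and 70.5 CPM in cKO and 130 and 111 CPM in Ctrl, a log2 change of -0.74 ± 0.27 (limma adjusted p = 0.197). Sf3a1, which also contacts U1, had 173 and 161 CPM in cKO and 212 and 234 CPM in Ctrl, with a smaller log2 change of -0.41 ± 0.23 (limma adjusted p = 0.41).

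For the 6 Sf3b genes the median was -0.36, or -0.12 relative to all genes, with values relative to all genes of -0.038 without Ctrl 1 and -0.25 without cKO 2. Sf3b1, the branch-point clamp that is often mutated in blood cancers of humans, had 612 and 617 CPM in cKO and 763 and 713 CPM in Ctrl. Its libraries did not overlap, but the log2 change of -0.26 ± 0.20 lay within 0.02 of the median of all genes, at -0.017 relative to it. Sf3b3, the large scaffold subunit next to Sf3b1, had 358 and 356 CPM in cKO and 550 and 405 CPM in Ctrl, a log2 change of -0.40 ± 0.21 that became -0.18 without Ctrl 1 and -0.62 without Ctrl 2. Sf3b2, an RNA-contacting subunit, had 227 and 237 CPM in cKO and 317 and 349 CPM in Ctrl, the lowest log2 change of the 6 at -0.52 ± 0.21 (limma adjusted p = 0.265). Sf3b5, the smallest subunit, had 42.4 and 70.5 CPM in cKO and 57.8 and 68.9 CPM in Ctrl, with overlapping groups and a log2 change of -0.20 (95% interval -0.88 to 0.48). That value turned to 0.0056 after median centring and to 0.12 with edgeR and TMM scaling. No test was made of Sf3a against Sf3b, so the groups are given side by side only.

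Snrp genes encode the Sm ring shared by most spliceosomal snRNPs and the small proteins of U1 and U2. Of 8 listed, 7 had a log2 change below 0, where 67.9% of all genes did, and 7 lay below the median of all genes. The median of the 8 was -0.48, or -0.24 relative to all genes and -0.43 relative to them without Ctrl 1. Their summed level was 474 and 422 CPM in cKO and 603 and 715 CPM in Ctrl. Snrpd3 (Sm D3) had 60.9 and 46.5 CPM in cKO and 108 and 109 CPM in Ctrl. Its log2 change of -1.01 ± 0.29 (standard error) was the lowest among the Snrp genes, with groups far apart, but did not pass over all genes (limma adjusted p = 0.104). Snrpd1 (Sm D1), named after its values were seen, had 27.7 and 30.6 CPM in cKO and 57.8 and 54.5 CPM in Ctrl. Snrpb (Sm B), the highest of the set in CPM, had 186 and 184 CPM in cKO and 210 and 284 CPM in Ctrl, a log2 change of -0.40 ± 0.23 (limma adjusted p = 0.44) that was -0.18 without Ctrl 2 and -0.61 without Ctrl 1. Snrpe (Sm E) was the Snrp gene with a log2 change above 0. It had 29.5 and 16.0 CPM in cKO and 18.2 and 11.2 CPM in Ctrl, overlapping and on 16, 12, 17 and 7 reads in that order, a log2 change of 0.57 with an interval from -0.51 to 1.65, and 80.6% of its coding stretches are shared with transcripts of other genes. Of the 4 listed Sm genes, 3 had both cKO libraries below both Ctrl libraries, against 34.1% of all genes. Differences between the subunits were not tested.

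The other 4 Snrp genes encode proteins of U1 (Snrpa and Snrpc) and U2 (Snrpa1 and Snrpb2). Snrpc (U1-C), which stabilises the pairing of U1 with the splice site, had 22.1 and 25.3 CPM in cKO and 23.6 and 41.7 CPM in Ctrl, with overlapping groups. Its log2 change of -0.39 ± 0.44 became 0.0051 without Ctrl 2. Snrpa1, a U2 protein named after its values were seen, had 29.5 and 31.9 CPM in cKO and 48.2 and 65.7 CPM in Ctrl, and its groups did not overlap. Snrpa and Snrpb2, given to complete the set, had log2 changes of -0.45 and -0.52, also with both cKO libraries below both Ctrl libraries.

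The Snrnp genes encode particle-specific proteins of U1, U5, the joined U4/U6.U5 particle and the minor spliceosome. Their median was -0.37, or -0.13 relative to all genes and -0.23 relative to them without Ctrl 1. Of the 7 genes, 5 had both cKO libraries below both Ctrl libraries, against 34.1% of all genes. These 5 include Snrnp27, Snrnp35 and Snrnp48, which have few reads. Snrnp200, the helicase that unwinds U4 from U6, was the highest in CPM at 502 and 489 CPM in cKO and 659 and 623 CPM in Ctrl, a log2 change of -0.37 ± 0.20 (standard error; limma adjusted p = 0.407). Snrnp40, a WD-repeat protein of U5, had 49.8 and 50.5 CPM in cKO and 80.3 and 101 CPM in Ctrl, a log2 change of -0.83 ± 0.30 (limma adjusted p = 0.192). Snrnp70 (U1-70K), which binds the U1 RNA and meets SR proteins, had 94.1 and 142 CPM in cKO and 96.4 and 197 CPM in Ctrl. The second library was the higher one in both groups for Snrnp70, and its log2 change of -0.25 was 0.045 without cKO 1 and 0.26 without Ctrl 2. The value of -2.06 for Snrnp27, named after its values were seen, rests on 6 and 1 reads in cKO and 26 and 10 reads in Ctrl (limma adjusted p = 0.169), and was -0.88 without cKO 2. The 3 genes of the minor spliceosome, Snrnp25, Snrnp35 and Snrnp48, which serves a rare class of introns, had between 2 and 15 reads in every library, and their changes of 0.10, -0.28 and -0.52 have intervals that reach from below -1 to above 0.6.

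Prpf genes carry the names of yeast pre-mRNA processing factors and act from the joined particle to catalysis. All 13 had a log2 change below 0, where 67.9% of all genes did, and 11 lay below the median of all genes. The median of the 13 was -0.48, or -0.24 relative to all genes and -0.15 relative to them without cKO 2. Of the 13, 9 had both cKO libraries below both Ctrl libraries, against 34.1% of all genes. Prpf8, the large U5 protein at the catalytic centre, had 491 and 464 CPM in cKO and 704 and 569 CPM in Ctrl, a log2 change of -0.41 ± 0.21 (standard error; limma adjusted p = 0.376) that was -0.25 without Ctrl 1. Prpf38a, a factor of spliceosome activation, had 36.9 and 27.9 CPM in cKO and 65.3 and 56.1 CPM in Ctrl, a log2 change of -0.89 ± 0.35 (limma adjusted p = 0.241). Prpf19, the ubiquitin ligase of the complex that joins at activation, was named after its values were seen: it had 124 and 165 CPM in cKO and 231 and 237 CPM in Ctrl, with the groups apart. Prpf31, the U4/U6 protein known for dominant retinitis pigmentosa in humans, was nearly level, with 77.5 and 85.1 CPM in cKO and 80.3 and 84.9 CPM in Ctrl. Its log2 change was -0.024 with an interval from -0.60 to 0.55, and it became 0.18 after median centring, so that its direction depends on the scaling.

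**Figure D3:**
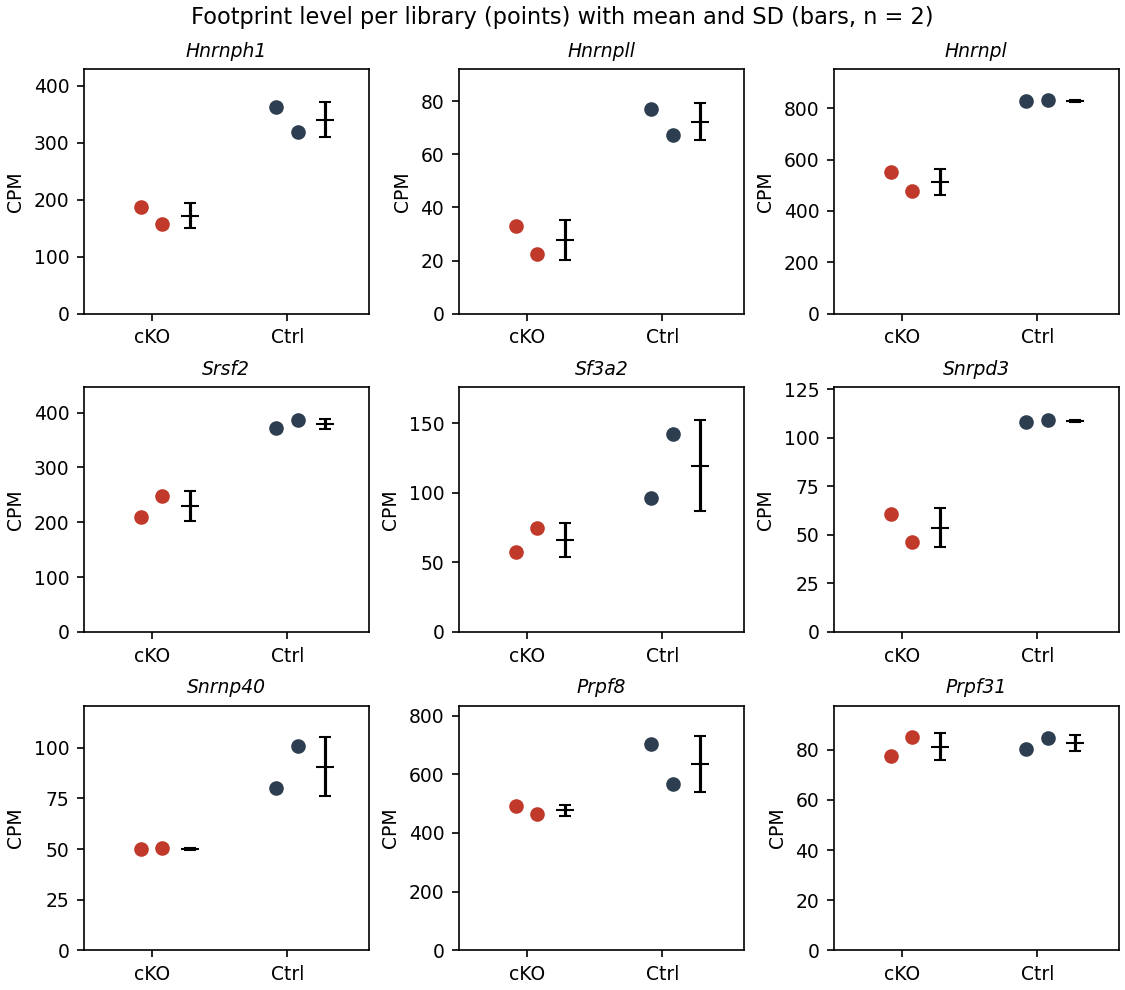
CPM of 9 splicing genes in each library (points), with the mean and SD of each group (bars, n = 2), cKO left of Ctrl and each axis from 0. In all but Prpf31 the cKO points lie below both Ctrl points, as in 46 of the 64 splicing genes and 34.1% of all genes. Hnrnph1 was named because it was called. Hnrnpll, Sf3a2, Snrpd3 and Snrnp40 were named for the lowest change of their prefix at or above 28.1 CPM. The 9 genes shown are thus no measure of the whole set.

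The hnRNP genes formed the largest set, with the highest summed CPM. All 18 had a log2 change below 0, where 67.9% of all genes did, from -1.36 (Hnrnpll) to -0.086 (Hnrnpdl). Of the 18, 15 lay below the median of all genes. The median of the 18 was -0.50, or -0.25 relative to all genes and -0.40 relative to them without Ctrl 2. The 18 genes had both cKO libraries below both Ctrl libraries in 13 cases, against 34.1% of all genes. Their summed level was 4378 and 4152 CPM in cKO and 6338 and 6022 CPM in Ctrl, a ratio of 0.69.

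Hnrnph1 (ENSMUSG00000007850, chromosome 11, 50376990 to 50386528, plus strand, GRCm38) was the splicing gene called lower. Its protein binds runs of G and regulates exon choice. It had 188 CPM in cKO 1 and 157 CPM in cKO 2, against 363 CPM in Ctrl 1 and 319 CPM in Ctrl 2, on 102, 118, 339 and 199 reads. Hnrnph1 averaged 173 ± 22.1 CPM in cKO and 341 ± 31.3 CPM in Ctrl (SD, n = 2 each) and fell by 0.98 ± 0.22 (standard error) on the log2 scale, or -0.74 relative to all genes (limma adjusted p = 0.0393). Lower values were present without each library in turn (-1.11 to -0.85), but the call was not always: limma gave an adjusted p of 0.0252 without Ctrl 2, of 0.168 without Ctrl 1, of 0.532 without cKO 1 and of 0.552 without cKO 2, the last 2 of which leave no gene of the table called. It was also absent after median centring (limma adjusted p = 0.107), with edgeR and TMM (0.131), with DESeq2 (0.244) and among genes of 20 CPM or more (0.0723), and present with edgeR and library totals (0.0327).

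The relatives of Hnrnph1 are less well measured. Hnrnph2 had 44.3 and 46.5 CPM in cKO and 78.2 and 46.5 CPM in Ctrl, overlapping, and 73.8% of its coding stretches are shared with other transcripts. Hnrnph3 had 9.22 and 9.31 CPM in cKO and 17.1 and 20.8 CPM in Ctrl on at most 16 reads, and Hnrnpf had 12.9 and 16.0 CPM in cKO and 12.9 and 19.2 CPM in Ctrl with 98.0% of its stretches shared. These 3 were named as relatives after their values were seen, and only Hnrnph1 of the 4 was called, a difference between genes that was not tested.

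Hnrnpll and its paralogue Hnrnpl both stood low. Hnrnpll, known for switching exons of Ptprc in lymphocytes, had 33.2 and 22.6 CPM in cKO and 77.1 and 67.3 CPM in Ctrl. Its log2 change of -1.36 ± 0.35 (standard error) lay just outside the threshold (limma adjusted p = 0.0698) and inside it with edgeR and library totals (0.0465), on 18 and 17 reads in cKO and 72 and 42 reads in Ctrl. Hnrnpl, a binder of CA-rich RNA, had 550 and 477 CPM in cKO and 826 and 830 CPM in Ctrl, a log2 change of -0.69 ± 0.20 (limma adjusted p = 0.118). Both genes had their groups apart by more than the spread within a group. Hnrnpu, the nuclear matrix protein also known as SAF-A, was the splicing gene of highest CPM, at 869 and 1024 CPM in cKO and 1266 and 1296 CPM in Ctrl, a log2 change of -0.44 ± 0.20 (limma adjusted p = 0.328). Hnrnpab, which binds AU-rich RNA and was named after its values were seen, had 452 and 414 CPM in cKO and 756 and 681 CPM in Ctrl, a log2 change of -0.73 ± 0.20 (limma adjusted p = 0.0945), with exons that overlap those of Phykpl over 29.1% of their bases. Hnrnpdl, which regulates its own splicing, had 170 and 90.4 CPM in cKO and 235 and 73.7 CPM in Ctrl. The first library was the higher one in each group for Hnrnpdl, and its log2 change of -0.086 ± 0.37 became 0.74 without Ctrl 1, 0.36 without cKO 2 and 0.12 after median centring.

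Of the hnRNP genes tied to m6A, 2 are listed. Hnrnpa2b1 had 391 and 372 CPM in cKO and 499 and 546 CPM in Ctrl, with the groups apart and a log2 change of -0.45 ± 0.20 (standard error; limma adjusted p = 0.318), or -0.21 relative to all genes. Hnrnpc had 55.3 and 46.5 CPM in cKO and 56.8 and 68.9 CPM in Ctrl, a log2 change of -0.30 ± 0.32 (limma adjusted p = 0.713), or -0.051 relative to all genes, and -0.16 without Ctrl 2. Neither was called, and the interval for Hnrnpc reaches from -0.95 to 0.36. Srsf10, a further gene with such a link, is not analysed here.

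**Figure D4:**
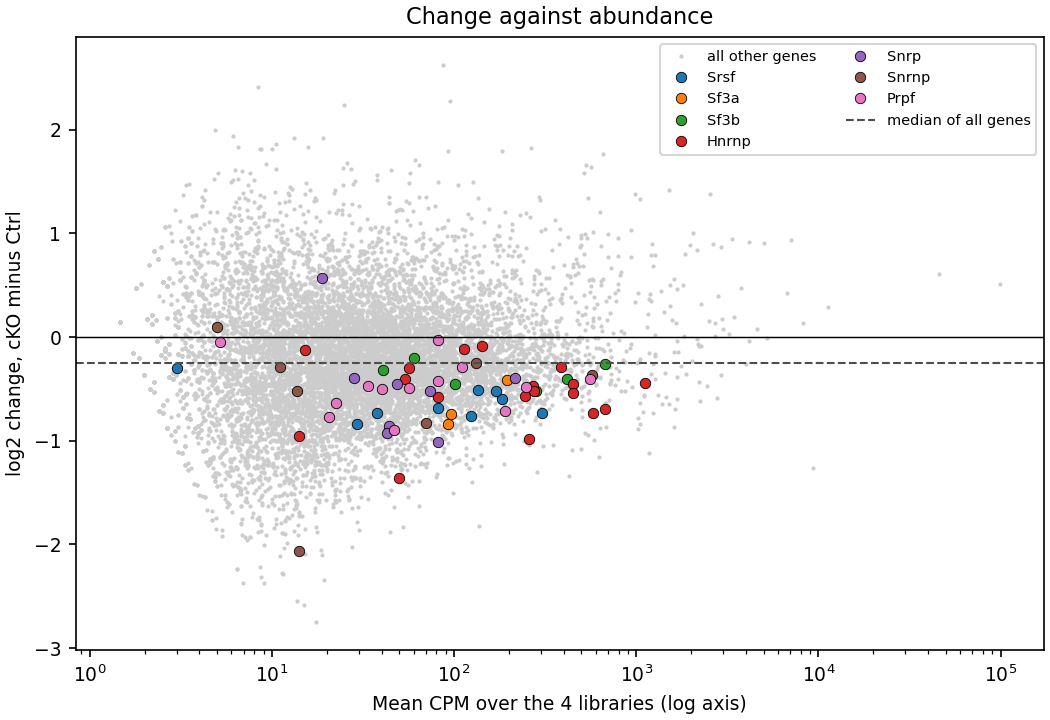
Log2 change (cKO minus Ctrl) of every gene against its mean CPM over the 4 libraries (log axis), with the splicing genes coloured by prefix. The coloured points lie mostly below the dashed median of all genes (-0.24) from about 10 CPM up to Hnrnpu, the highest.

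Levels of different genes were compared as CPM per kilobase of the longest annotated coding sequence, averaged over the 4 libraries. On this scale Hnrnpab (576 CPM per kilobase), Hnrnpu (463) and Srsf2 (457) ranked first, followed by Hnrnpa2b1 (426) and Hnrnpa0 (419), a member named for its level. Exons of Hnrnpab and Srsf2 overlap those of other genes over 29.1% and 25.3% of their bases. Other transcripts share 25.6% of the coding stretches of Hnrnpa2b1. The counted feature is not given either, so this order is one of reads per coding length among the listed genes. By library, Hnrnpab lay at 452 and 414 CPM per kilobase in cKO and 757 and 682 in Ctrl, and Hnrnpu at 362 and 426 in cKO and 527 and 539 in Ctrl, so the order of the 2 genes was not the same in every library: Hnrnpu exceeded Hnrnpab in cKO 2. The median splicing gene stood at 66.2 CPM per kilobase, against 19.3 over all genes. Per kilobase, Prpf8 (79.5) and Snrnp200 (88.6), partners in U5, were close to each other, whereas Sf3b1 (173) exceeded Sf3b3 (114).

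The final coding bases are shown for 5 of these genes, because the METTL3-METTL14 complex modifies the A of GGAC within its preferred sequence and m6A is known to be dense around stop codons. They are Hnrnph1, the gene that was called, and the genes of lowest change among the Hnrnp, Snrp, Sf3b and Snrnp genes at or above 28.1 CPM. Each is the last 150 bases of the longest annotated coding sequence, stop codon included, read 5′ to 3′ on the mRNA strand of the GENCODE transcripts for GRCm38, with GGAC in capitals. The windows lie at chr11:50384706-50385895 (plus strand, Hnrnph1), chr17:80030485-80032634 (minus, Hnrnpll), chr10:75532282-75535322 (plus, Snrpd3), chr19:5274456-5274869 (minus, Sf3b2) and chr4:130388579-130389593 (plus, Snrnp40), each span including 1 intron between 2 coding exons.
Hnrnph1: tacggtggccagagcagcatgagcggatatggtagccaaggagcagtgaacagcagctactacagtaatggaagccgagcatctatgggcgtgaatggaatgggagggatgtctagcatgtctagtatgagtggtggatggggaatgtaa
Hnrnpll: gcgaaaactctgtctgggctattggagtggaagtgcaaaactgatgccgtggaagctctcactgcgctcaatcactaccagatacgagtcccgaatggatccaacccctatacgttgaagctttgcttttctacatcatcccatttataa
Snrpd3: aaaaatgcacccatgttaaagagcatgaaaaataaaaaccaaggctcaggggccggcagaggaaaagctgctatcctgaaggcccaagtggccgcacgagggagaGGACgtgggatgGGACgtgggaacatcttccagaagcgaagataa
Sf3b2: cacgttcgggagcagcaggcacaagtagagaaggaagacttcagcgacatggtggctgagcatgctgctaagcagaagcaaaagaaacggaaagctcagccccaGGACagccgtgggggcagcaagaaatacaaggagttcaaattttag
Snrnp40: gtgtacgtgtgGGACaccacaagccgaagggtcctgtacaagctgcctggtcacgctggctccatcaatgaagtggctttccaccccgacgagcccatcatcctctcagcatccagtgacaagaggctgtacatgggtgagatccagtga

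The window of Snrpd3 holds GGAC 2 times, those of Sf3b2 and Snrnp40 hold it 1 time each, and those of Hnrnph1 and Hnrnpll do not hold it. The windows of Srsf9, Sf3a2 and Prpf38a, the genes of lowest change at or above 28.1 CPM in the other 3 prefixes, do not hold it either and are not printed. Over all splicing genes, 30 of 64 (46.9%) hold GGAC in this window, against 5403 of 10306 genes with a complete coding sequence (52.4%), searched on the mRNA strand only. GGAC was found in 9 of 13 Prpf, 5 of 7 Snrnp, 4 of 6 Sf3b, 8 of 18 Hnrnp, 3 of 8 Snrp, 1 of 9 Srsf and 0 of 3 Sf3a genes, and the differences between prefixes were not tested. GGACT, which is GGAC followed by T, was in 4 of 64 splicing genes (6.25%), against 1822 of 10306 genes (17.7%). The median log2 change was -0.47 for splicing genes with GGAC in the window and -0.52 for those without it, and -0.22 and -0.26 over all genes. These counts describe letters in a fixed window and say nothing of whether a site is modified.

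Splicing genes outside these prefixes were read from 5 lists, each beside the background of 34.1% of genes with both cKO libraries below both Ctrl libraries. None of the genes on these lists was called in limma or with edgeR and TMM. At an unadjusted p under 0.05, limma had 37 of the 161 genes on the lists (23%) lower, against 10.8% of all genes, and 0 higher, against 3.5% of all genes. Among all genes at or above the median expression, 15.6% were lower at that threshold. Of 27 listed SR-like and exon junction genes, 26 had a log2 change below 0 and 16 (59.3%) had the libraries apart in that direction, with a median of -0.41. Srrm2, the speckle scaffold, had 574 and 660 CPM in cKO and 807 and 710 CPM in Ctrl, and Son, its partner, had 319 and 335 CPM in cKO and 386 and 351 CPM in Ctrl. Of 52 other hnRNP-like and regulatory genes, 44 were below 0 and 29 (55.8%) had the libraries apart downward, with a median of -0.46. Ptbp1, the polypyrimidine tract binder, had 537 and 521 CPM in cKO and 671 and 713 CPM in Ctrl, and Sfpq, a paraspeckle protein, had 413 and 451 CPM in cKO and 524 and 683 CPM in Ctrl. Of 58 other core spliceosome genes, 49 were below 0 and 32 (55.2%) were apart downward, with a median of -0.37. Its members of highest CPM were the helicases Ddx39b, with 358 and 283 CPM in cKO and 509 and 407 CPM in Ctrl, and Dhx15, with 351 and 262 CPM in cKO and 377 and 346 CPM in Ctrl.

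The last 2 lists hold factors that act on the splicing proteins. For comparison, 67.9% of all genes were below 0, 34.1% were apart downward and 11.1% upward. Of 9 SR protein kinases and transportins, 8 were below 0, 3 (33.3%) were apart downward and 1 upward, with a median of -0.42. The upward one was Srpk1, which phosphorylates RS domains, at 166 and 144 CPM in cKO and 106 and 136 CPM in Ctrl, a log2 change of 0.36 ± 0.25 (standard error; limma adjusted p = 0.535). Tnpo2, a nuclear import receptor, had 153 and 110 CPM in cKO and 176 and 173 CPM in Ctrl. Of 15 genes of the SMN complex and snRNP assembly, 9 were below 0, 6 (40%) were apart downward and 3 upward, with a median of -0.23, next to the -0.24 of all genes. Strap, an SMN-complex partner, had 120 and 94.4 CPM in cKO and 159 and 133 CPM in Ctrl, and Prmt5, which methylates Sm proteins, had 95.9 and 82.5 CPM in cKO and 101 and 104 CPM in Ctrl. The difference between these lists and the 64 genes was not tested.

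The annotation bears on which of these values can be read singly. Exons of 23 of the 64 splicing genes overlap those of another gene, and the strand setting of the counting is not given. The 41 without overlap had a median log2 change of -0.45, with 39 below 0, where 67.9% of all genes were. Of the 64 genes, 39 share under 10% of their 28-base coding stretches with transcripts of other genes, and these had a median of -0.49, against -0.50 for the 25 that share more. Besides Srsf3, Snrpe, Hnrnpf and Hnrnph2, high shares were seen for Hnrnpk (87.4%), Sf3b4 (84.9%), Srsf5 (71.6%) and Hnrnpc (62.3%). The same holds for Snrpa (64.0%), Snrpd1 (60.4%) and Snrpc (58.6%). The annotation holds 72 protein-coding genes with these prefixes, and 8 of them are not analysed here for want of a row. Of those 8, Snrpg (100%), Hnrnpa3 (97.8%), Srsf10 (86.9%), Hnrnpa1 (84.2%), Snrpf (83.3%), Snrpd2 (75.8%) and Snrpn (53.0%) share most of their stretches with other transcripts, and Srsf12 shares 0%.

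**Figure D5:**
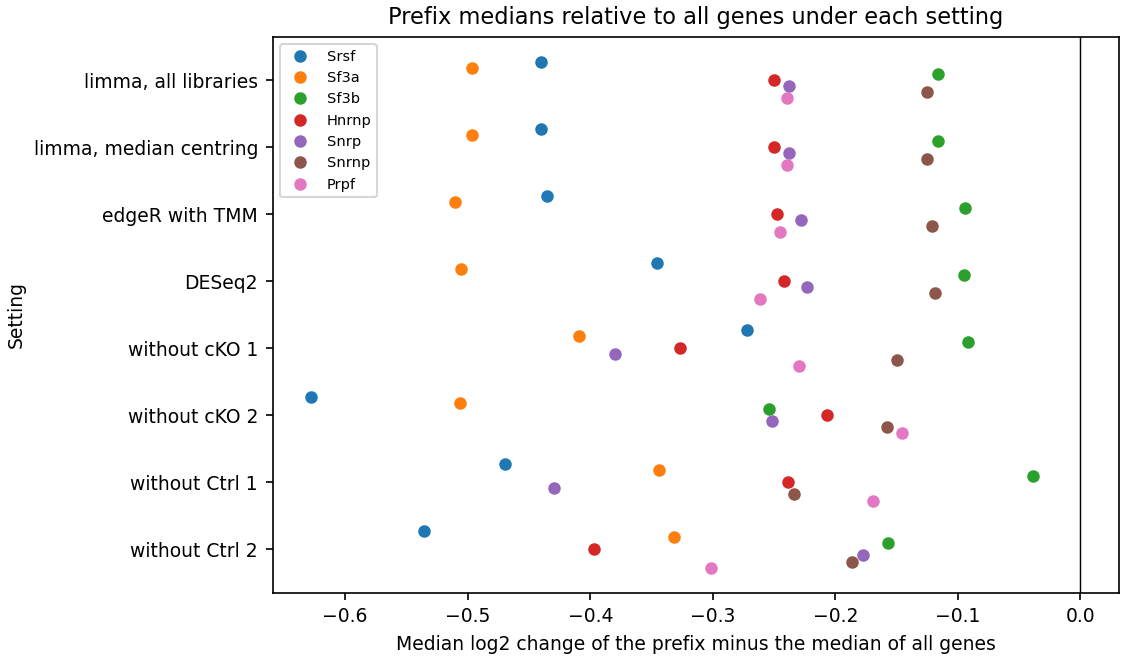
Median log2 change of each prefix minus the median of all genes, under 8 settings (rows): limma on all libraries, other scalings or tools, and each library left out. All points lie below 0, with the smallest difference for Sf3b without Ctrl 1 (-0.038) and the widest spread for Srsf (-0.63 to -0.27).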

How the data were processed

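The authors deposited CPM values per gene and library; reads went through fastp, HISAT2 and HTSeq with GRCm38, per the submitters' processing notes, which name no version, counted feature, strand setting or treatment of reads with several matches. Each deposited column sums to 1000000, and every value is a whole multiple of 1 read (100% of values, tolerance 1e-06 reads), so whole reads were recovered; every listed gene has at least 1 read in each library, and 2256 to 4145 genes per library have under 10 reads. The table calls the control columns WT. Identifiers were matched to GENCODE M21 (10323 of 10327). The main test was limma 3.58.1 in R 4.3.3, run on log2(CPM + 1) with trended variance and 1 term for group, a filter of 1 CPM in 2 libraries (0 genes removed) and Benjamini-Hochberg adjustment over all genes. Its standard errors borrow from genes of like abundance. An exact permutation test of 2 against 2 libraries cannot go below p = 0.333 and was not used. Alternatives were other pseudocounts and filters, median centring, edgeR 4.0.16 and DESeq2 1.42.0 on recovered counts (on these reads edgeR with TMM called 163 genes higher and 13 lower), leaving out each library, and a replicate block. The code was tested on simulated data. The genes named are Mettl14; called splicing genes; per prefix the highest and lowest change among genes at or above 28.1 CPM and the 2 highest in CPM, of which 1 Prpf gene is not reported here; Hnrnpa2b1, Hnrnpc, Srsf3 and Srsf10; and, per further list, its called genes or the 2 highest in CPM. The splicing genes, lists and role groups were chosen with earlier results of these data known. The chi-square of counts between replicates, divided by its degrees of freedom, was 3.13 in cKO and 3.69 in Ctrl. The libraries within a group are thus not copies of each other. Libraries of different groups were not compared in this way.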

Additional observations from a re-analysis of the deposited data

How the results depend on the processing

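All 7 prefix medians were below 0 and below the median of all genes under every setting run. Of all genes, 38 were called higher and 31 lower. The counts were 5 and 2 with a filter of 20 CPM, 105 and 8 after median centring, 163 and 13 with edgeR and TMM, 62 and 56 with edgeR and library totals, 83 and 4 with DESeq2, and 0 to 104 and 0 to 44 with a library left out (0 of either without cKO 1 or cKO 2). The share of called genes that were higher was 55.1% in limma and 92.9% after centring, which also moved the median of all genes from -0.24 to -0.037. Splicing genes called lower numbered 1; they were 0 with the 20 CPM filter, centring, edgeR with TMM or DESeq2, 2 with edgeR and library totals, and 0 to 1 with a library left out. With the replicate number as a block, which no label supports as a pairing, limma called 257 genes higher (2.49%) and 582 lower (5.64%), 18 splicing genes among those lower; differences between replicates 1 and 2 correlated across genes between cKO and Ctrl (r = 0.19; 0.57 over splicing genes). The prefix medians moved by more than the SD between libraries as follows. After centring, with edgeR and TMM, and with DESeq2 they were -0.53, -0.51 and -0.52 for Sf3a, -0.15, -0.092 and -0.11 for Sf3b, -0.29, -0.25 and -0.26 for Hnrnp and -0.27, -0.23 and -0.24 for Snrp; Srsf was -0.36 with DESeq2. Without genes of overlapping exons Sf3a was -0.58 and Sf3b -0.26. With a library left out the medians ran from -0.73 to -0.56 for Sf3a, -0.47 to -0.32 for Sf3b and -0.71 to -0.40 for Snrp; those of Srsf (-0.85 to -0.51), Hnrnp (-0.62 to -0.43) and Snrnp (-0.52 to -0.38) stayed within that SD. Signs turned for single genes that were not called: Sf3b5 (0.0056 centred, 0.12 edgeR with TMM, 0.096 DESeq2), Prpf31 (0.18, 0.24 and 0.22 likewise) and Hnrnpdl (0.12 centred); with a library left out, Sf3b5 reached 0.16, Hnrnpdl ran from -0.92 to 0.74 (0.36 without cKO 2), Snrpc from -0.79 to 0.0051, Snrnp70 from -0.76 to 0.26 (0.045 without cKO 1), Prpf31 from -0.091 to 0.043 (0.015 without Ctrl 2), and Srsf3 from -0.94 to 0.35 (0.21 without cKO 2). The causes were not tested. Depth limits genes of few reads.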
